A study of Mus musculus with 24 samples.

Results

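Carbon tetrachloride added to a western diet was examined in the miRNA content of exosomes, nanometre-scale vesicles shed by cells, from mouse serum, over 12 of the 24 samples of the series. The members are the 6 samples titled WD+CCl4, labelled HCC (liver cancer), and the 6 titled WD+oil, labelled NASH (fatty liver with inflammation), chosen by their titles, and all 566 mouse miRNA probes of the NanoString nCounter Mouse v1 panel, which counts barcoded probes without amplification. All 12 samples came from male C57BL/6N mice aged 40 weeks that ate high-fat food, drank a sugar solution (fructose at 23.1 g/L, glucose at 18.9 g/L) and had 1 intraperitoneal injection a week. The injection held carbon tetrachloride (CCl4), a liver toxin, in the WD+CCl4 group and its vehicle corn oil in the WD+oil group. The diet is therefore shared by both groups, and no sample of this pair is free of it. The other 12 samples, on normal chow with oil (ND+oil) or with CCl4 (ND+CCl4), enter the choice of miRNAs tested and the shared estimate of spread. They also enter the test of whether the response to CCl4 differed between diets. The labels do not state that samples are separate animals, so the p-values reflect sample spread that may be technical, and no liver histology of these mice was used here to check the disease labels.

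A miRNA is a short RNA that, loaded into an Argonaute protein, pairs with messenger RNAs mainly through its seed, bases 2 to 8, and lowers their stability or translation. Hepatocytes release miR-122, miR-192 and miR-148a into blood when injured, whether in vesicles or bound to protein. CCl4 is activated by a cytochrome of hepatocytes around the central vein, and repeated doses kill these cells and lead to fibrosis. In serum vesicles, blood cells and platelets are the other main sources, so a serum level reflects the mixture of contributing cells: fewer vesicles of one cell type and less of a miRNA per vesicle cannot be told apart in these data.

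The mature sequences of the miRNAs on which the description turns are given 5′ to 3′ from RefSeq (GRCm38.p6), with the seed in capitals. First come the miRNAs of blood and other cells that lay lower or higher in WD+CCl4.
miR-342-3p: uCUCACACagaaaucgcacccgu
miR-132: uAACAGUCuacagccauggucg
miR-142-5p: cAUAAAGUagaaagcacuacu
miR-99a: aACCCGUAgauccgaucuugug
miR-340-5p: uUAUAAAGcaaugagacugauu
Next are 2 let-7 members with the same seed, GAGGUAG, that lay on opposite sides of the western diet control before background subtraction, though both differences were positive after it.
let-7b: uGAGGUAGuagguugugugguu
let-7e: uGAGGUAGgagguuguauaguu
Last are 3 hepatocyte-enriched miRNAs, whose difference depended on 1 library.
miR-802: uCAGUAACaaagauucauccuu
miR-192: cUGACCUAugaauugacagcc
miR-148a: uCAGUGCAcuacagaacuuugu
The panel names miR-132, miR-99a, let-7b, let-7e, miR-802, miR-192 and miR-148a without an arm, and the arm that the older undivided name stood for is shown. Apart from let-7b and let-7e, no pair among these has a common seed. On GRCm38.p6, miR-342-3p lies at chr12:108658680-108658702 on the plus strand, miR-99a at chr16:77598940-77598961 (plus) and miR-802 at chr16:93369737-93369758 (plus). Of the 158 miRNAs tested, 31 carry the same name in RefSeq.

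The libraries differed in depth between the groups. Recovered total miRNA counts ran from 48664 (median 158795) to 265265 in WD+oil, and in WD+CCl4 from 139911 to 444737 in 5 libraries with 1328933 in replicate 1. On the log2 scale the totals were 16.92 ± 1.13 and 18.33 ± 1.19 (SD, n = 6 each), a 2.66-fold difference with an exact two-sided permutation p of 0.0606 (0.0909 adjusted over 3 library measures), and 2.01-fold without WD+CCl4 replicate 1 (exact permutation p = 0.121). Replicates 1 to 3 and 4 to 6 formed separate sets of depth: WD+oil totals were 48664 to 75896 in the first set and 241694 to 265265 in the second. Within each set the WD+CCl4 totals lay above all WD+oil totals, where 3 against 3 samples allow no exact permutation p below 0.1. The number of detected miRNAs differed likewise: 112 ± 34.6 of the 566 probes exceeded the negative control limit in WD+oil and 162 ± 41.7 in WD+CCl4 (exact permutation p = 0.0541, adjusted 0.0909). The haemolysis index, log2 miR-451 minus log2 miR-23a, was 2.96 ± 0.62 and 3.13 ± 1.09 (exact permutation p = 0.734). Without WD+CCl4 replicate 1 it was 3.52 ± 0.57 in WD+CCl4, a difference of 0.56 from WD+oil against 0.17 with all samples (exact permutation p = 0.152).

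**Figure D1:**
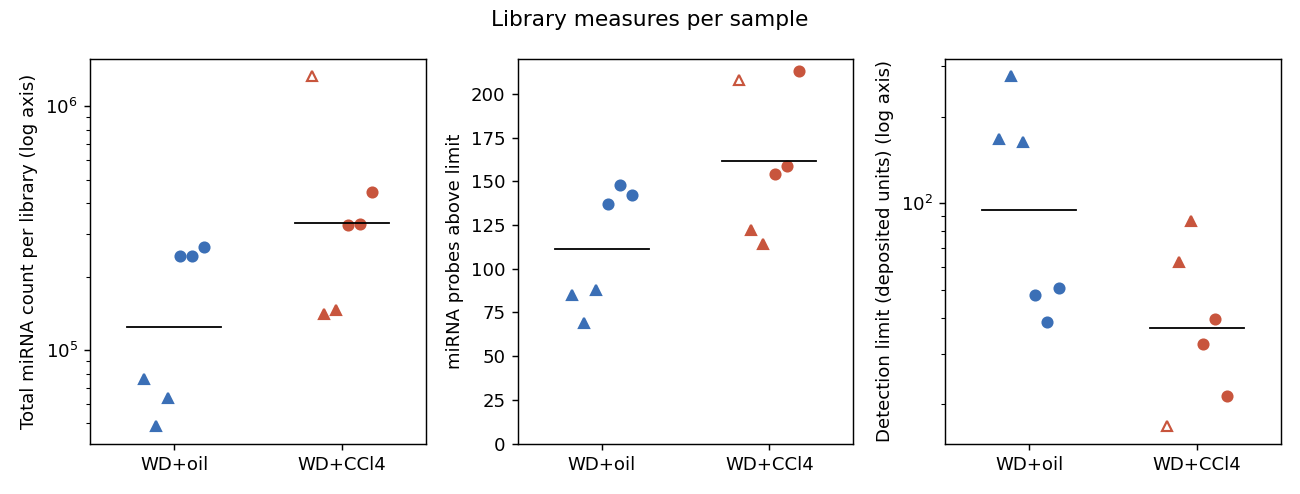
Total recovered miRNA count, number of mouse miRNA probes above the negative control limit, and that limit on the deposited scale, for each of the 12 libraries; triangles are replicates 1 to 3, circles replicates 4 to 6, the open triangle is WD+CCl4 replicate 1, and bars are means (geometric on log axes). Within each set the WD+CCl4 libraries hold more counts than the WD+oil libraries, and the limit in WD+oil replicates 1 to 3 (163 to 277 deposited units) lies above that of the 9 other libraries.

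Library scaling carried this depth into the low values. The limit (2 SD above the mean of the 8 negative control probes, times the library's scaling factor) was 163 to 277 deposited units in WD+oil replicates 1 to 3, 38.7 to 50.8 in WD+oil replicates 4 to 6 and 16.8 to 86.9 in WD+CCl4. On the deposited scale the negative controls themselves were lower in WD+CCl4 by a log2 difference of -1.22. Of the 408 miRNAs not tested for lack of signal, 366 lay lower in WD+CCl4, with a median log2 difference of -0.58. For that reason most low miRNAs described singly are given with the number of libraries in which they exceeded the limit. Their log2 difference after the negative control mean was subtracted is given as well. Values under 1 after this subtraction were set to 1. Where this held in the WD+oil libraries, the difference given after subtraction includes the distance to that floor and is no fold change. The subtraction moved the median log2 difference of all 158 miRNAs tested to 0.32.

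WD+CCl4 replicate 1 stood apart from the other 11 libraries. It lay outside their whole range for 105 of the 158 miRNAs tested, above it for 50 and below it for 55. Its most counted miRNA was miR-22, a ubiquitous miRNA, at 42.7% of all its counts. The leading miRNA of the other 5 WD+CCl4 libraries, miR-451, held 21.5% to 39.9%. miR-22 also led WD+oil replicate 3 (26.3%) and, on chow, ND+CCl4 replicates 1 (38.1%) and 2 (31.2%). Along the first principal component of the 12 libraries, which held 48.6% of the variance, it scored -20.2, and the others lay between -5.66 and 8.75. The median SD over the 158 miRNAs was 0.52 on the log2 scale in WD+oil, 0.85 in WD+CCl4, and 0.52 in WD+CCl4 without this library. Most differences below are therefore given with and without it.

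No miRNA passed the test between WD+CCl4 and WD+oil. Of 158 miRNAs above the limit in at least 6 of 24 samples, 0 (0%) had an adjusted p under 0.05 by limma, where the smallest was 0.887, and 0 (0%) without WD+CCl4 replicate 1, where it was 0.804. At an unadjusted p under 0.05 there were 8 miRNAs (5.06%), 3 higher (1.9%) and 5 lower (3.16%), and 4 (2.53%), all lower, without that library. edgeR and DESeq2 on recovered counts also called 0, with 11 (6.96%) and 14 (8.86%) at an unadjusted p under 0.05. The differences were centred near 0: 79 of 158 (50%) were positive, with a median log2 difference of 0.003, and 72 (45.6%) without replicate 1, with a median of -0.03. These directions are relative to the other miRNAs of a library: scaled to the ath-miR159a spike-in instead, the median difference was 1.05 and 152 of 158 were positive.

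The spread between samples limits the size of difference that could be seen. The 95% interval of a difference had a median half-width of 0.93 on the log2 scale, or 1.91-fold. For 38 miRNAs (24.1%) the whole interval lay within 1 log2 unit of 0, and for 138 (87.3%) within 2 units. Without WD+CCl4 replicate 1 these were 40 (25.3%) and 140 (88.6%). The narrowest belonged to miR-350 (0.03, interval -0.44 to 0.50), miR-23a (-0.14, interval -0.61 to 0.34) and miR-25 (-0.23, interval -0.72 to 0.25), the first a miRNA of little-studied role and the others members of the broadly expressed miR-23/24/27 and miR-106b clusters. For these 3, a difference of 1 log2 unit in either direction lies outside the interval.

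**Figure D2:**
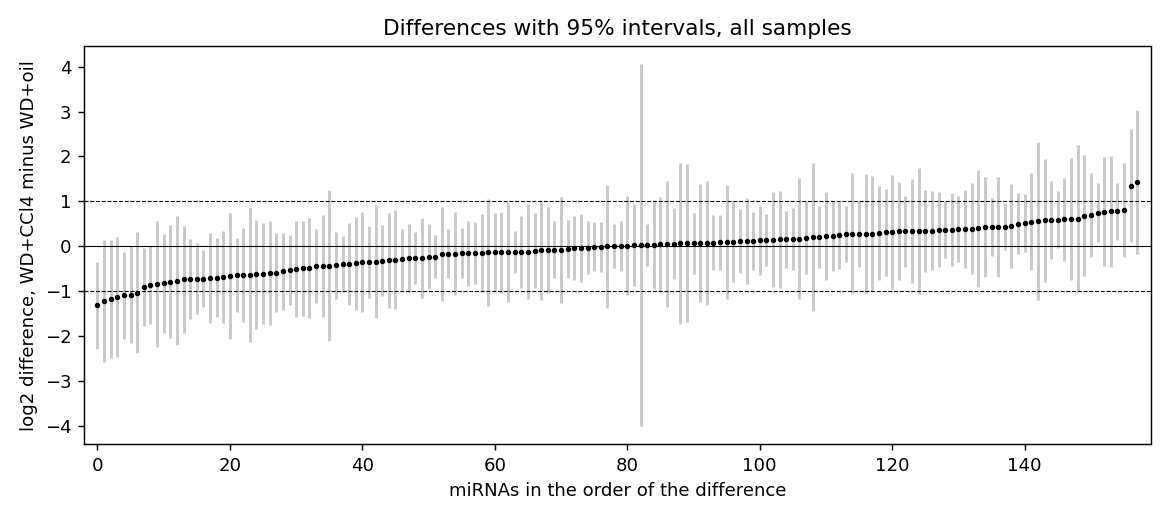
Log2 difference, WD+CCl4 minus WD+oil, for the 158 tested miRNAs in the order of the difference (points), with unadjusted 95% limma intervals (grey bars); dashed lines mark 1 log2 unit. The differences run from -1.32 to 1.43, and the widest interval belongs to let-7a, which ranged from 1.0 to 659 in WD+CCl4.

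The groups did not overlap for 2 miRNAs (1.27% of 158), both lower in WD+CCl4. The first was miR-342-3p, which lies in an intron of the Evl gene and is abundant in lymphocytes. Its deposited value ran from 1719 (median 1970) to 5351 in WD+oil and from 270 (median 1049) to 1694 in WD+CCl4, and it exceeded the limit in all 12 libraries. Every WD+CCl4 library thus lay below every WD+oil library, with WD+CCl4 replicate 1 the lowest of all and WD+oil replicate 3 the highest. The log2 difference was -1.32 ± 0.47 (SE), 2.50-fold lower, with a limma adjusted p of 0.887 (unadjusted 0.00944); without replicate 1 it was -0.97 ± 0.43, and the groups still did not overlap. It measured -2.05 within replicates 1 to 3, -1.34 there without WD+CCl4 replicate 1, and -0.59 within replicates 4 to 6.

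The second was miR-99a, of the family whose seed recurs in miR-100 and which targets mTOR. Values were 93.6 (median 105.8) to 131 in WD+oil and 15.1 (median 60.0) to 89.0 in WD+CCl4. The gap between the groups, from 89.0 to 93.6, was small, and the library farthest below was again WD+CCl4 replicate 1. The log2 difference was -1.09 ± 0.47 (limma adjusted p = 0.887), or -0.76 ± 0.44 without that library. Only 3 WD+oil and 4 WD+CCl4 libraries exceeded the limit, and after background subtraction the difference was -0.49, or -0.13 without replicate 1. Its relatives miR-99b and miR-100 were not tested for lack of signal.

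Leukocyte miRNAs lay mostly below the diet control. Of 6 tested members of the myeloid list, 5 were lower and 1 higher (median log2 difference -0.46, against 0.003 over all 158), and of 4 lymphoid members 3 were lower (median -0.56). None was called. Without WD+CCl4 replicate 1 the medians were -0.22 and -0.20, against -0.03 over all.

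Among the myeloid members, miR-132, which innate immune cells and neurons induce on activation, ran from 589 (median 695) to 873 in WD+oil and from 308 (median 387) to 818 in WD+CCl4. The groups overlapped only through WD+CCl4 replicate 5, the 818, while the other 5 lay below every WD+oil library. The log2 difference was -0.72 ± 0.31 (unadjusted p = 0.0272, limma adjusted p = 0.887), and -0.63 ± 0.32 without replicate 1. The leukocyte miRNA miR-142-5p, made almost wholly in blood-forming cells, measured 486 (median 779) to 1709 in WD+oil and 119 (median 487) to 647 in WD+CCl4. All 6 WD+CCl4 libraries lay below the WD+oil mean, although the groups overlapped. Its log2 difference of -1.08 ± 0.53 was -0.73 ± 0.50 without replicate 1, with -1.73 from replicates 1 to 3 (-0.93 there without that library) and -0.43 from replicates 4 to 6.

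The abundant miR-223, which granulocytes, monocytes and platelets hold in large amounts, turned on the same library. WD+oil values were 6957 (median 13245) to 19373 and WD+CCl4 values 2065 (median 14569) to 24885. The 2065 was WD+CCl4 replicate 1, and the next lowest of that group was 12577. Its log2 difference went from -0.12 ± 0.51 with all samples to 0.38 ± 0.43 without that library. In the lymphoid list, miR-150, a regulator of B cell development, had a log2 difference of -0.50 ± 0.51, which was -0.16 ± 0.49 without replicate 1.

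**Figure D3:**
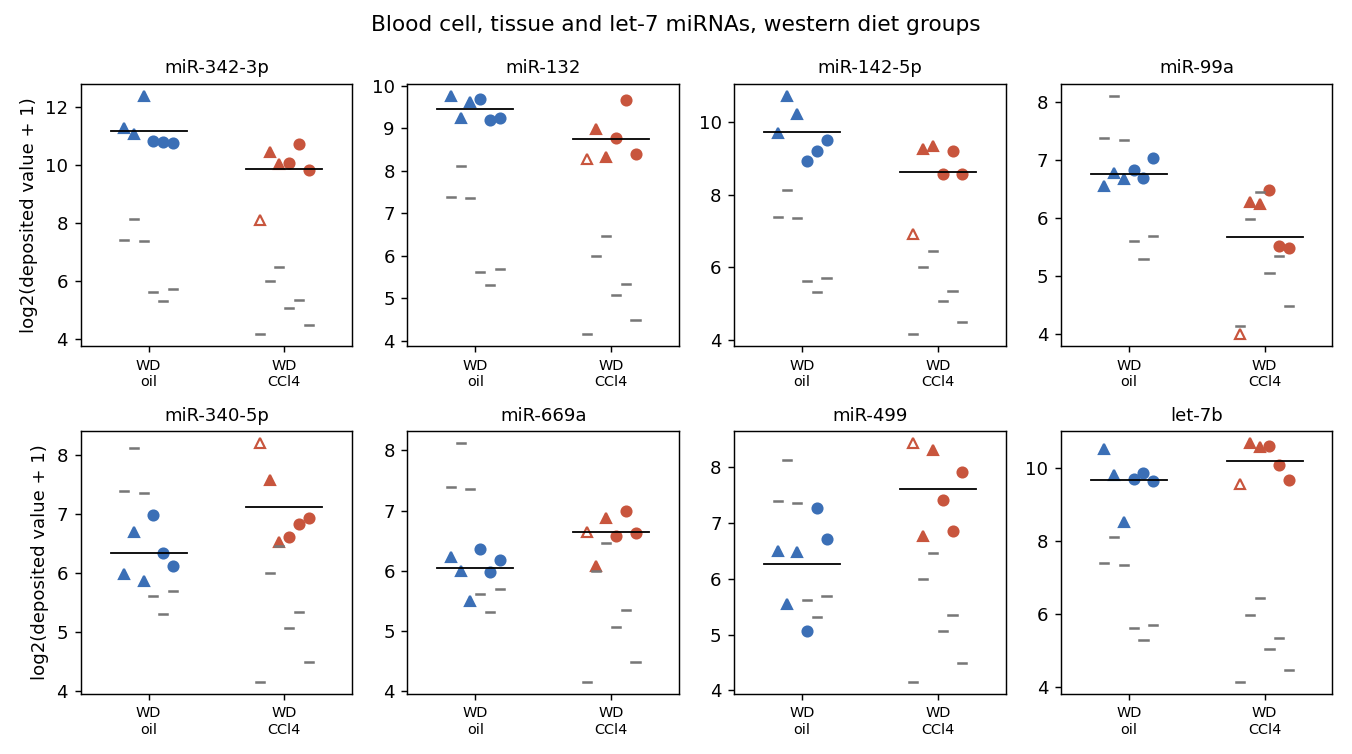
Log2 of the deposited value plus 1 in each western diet library for 8 miRNAs; triangles are replicates 1 to 3, circles replicates 4 to 6, the open triangle is WD+CCl4 replicate 1, black bars are group means and short grey bars each library's negative control limit. miR-342-3p and miR-99a do not overlap between groups, and miR-99a, miR-340-5p and miR-669a lie below the limit in WD+oil replicates 1 to 3.

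Hepatocyte-enriched miRNAs showed no shift in common across all 6 samples, and each tested member lay lower on the deposited scale without WD+CCl4 replicate 1. With all samples, 3 of 5 tested members were higher and 2 lower, with a median log2 difference of 0.07. Without that library, 0 were higher and 5 lower, with a median of -0.51 against -0.03 over all 158, and none was called. Of these 5, miR-365 exceeded the limit in 2 WD+oil and 5 WD+CCl4 libraries. Its difference without replicate 1, -0.51, became 0.59 after background subtraction, where the list median was -0.51. The summed level of the list was 7800 to 22574 in WD+oil, 110083 in WD+CCl4 replicate 1, and at most 23078 in the other 5. miR-194, the partner of miR-192 in its cluster, was not tested for lack of signal.

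The most abundant hepatocyte miRNA, miR-122, measured 2949 (median 6359) to 10211 in WD+oil and 1455 (median 8072) to 44112 in WD+CCl4. The WD+CCl4 values fell into 3 high libraries (replicates 1, 2 and 5, the last 2 at 13273 and 13358) and 3 low ones below every WD+oil value. The log2 difference was 0.07 ± 0.86 (limma adjusted p = 0.991) and -0.51 ± 0.82 without replicate 1, with intervals that reach beyond 1 log2 unit on both sides in each case.

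For miR-192, a miRNA of liver, kidney and gut epithelium, WD+oil values were 823 (median 1224) to 4297 and WD+CCl4 values 589 (median 965) to 24911. The highest value was replicate 1, far above the next of its group (2139.5). Its log2 difference was 0.20 ± 0.80, or -0.58 ± 0.67 without that library. miR-148a, which is abundant in liver and shares its seed with miR-152, ran from 3377 (median 5367) to 8431 and from 2266 (median 3924) to 40279. Replicate 1 again gave the 40279, and the difference was 0.07 ± 0.67, or -0.50 ± 0.59 without it.

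The lowest difference without that library belonged to miR-802, a liver miRNA that rises in the liver of obese mice. WD+oil held 78.4 (median 107) to 126, WD+CCl4 replicate 1 held 446, and the other 5 WD+CCl4 libraries held 23.6 (median 47.2) to 67.4. These 5 lay below every WD+oil library, 1 of 3 miRNAs (1.9% of 158) for which this was so without replicate 1, and all of the 3 were lower. The log2 difference was -0.74 ± 0.58 with all samples and -1.30 ± 0.49 without replicate 1, 2.47-fold lower (unadjusted p = 0.0133, limma adjusted p = 0.804). It exceeded the limit in 3 WD+oil and 4 WD+CCl4 libraries, and the difference after background subtraction was -0.98, or -1.77 without replicate 1. The lowest WD+CCl4 value, 23.6, lay under the negative control mean of its library and was set to the floor. Both subtracted differences therefore include the distance to that floor and are no fold changes.

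**Figure D4:**
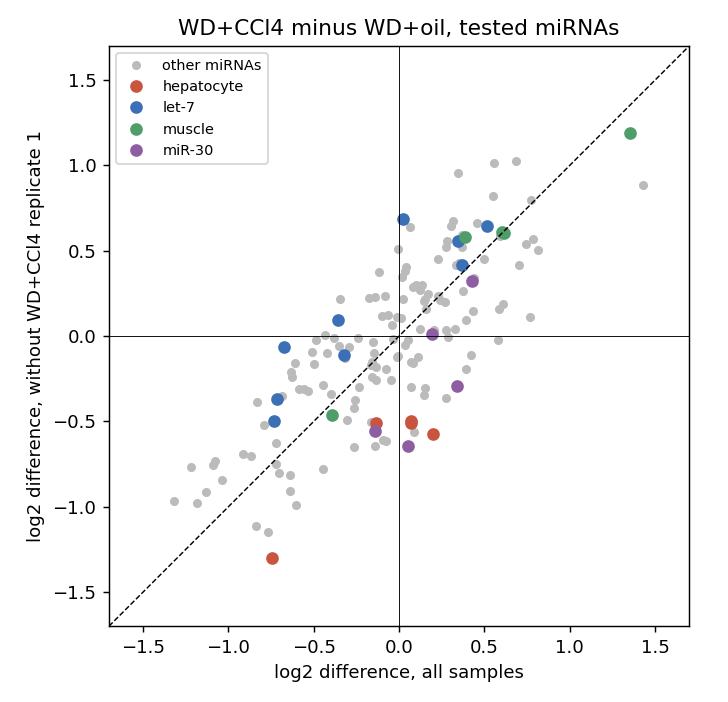
Log2 difference, WD+CCl4 minus WD+oil, with all samples (horizontal axis) and without WD+CCl4 replicate 1 (vertical axis) for the 158 tested miRNAs, with 4 lists coloured; the dashed line is equality. The 5 hepatocyte members all lie below the horizontal zero line, at -0.50 to -1.30, while with all samples they run from -0.74 to 0.20. All values are before background subtraction, after which miR-365 turned positive.

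The miR-30 family, broadly expressed and high in liver and kidney, depended on the same library. With all samples 4 of 5 members were higher (median 0.19), and without replicate 1 only 2 were (median -0.29). Its member miR-30a measured 978 (median 1362) to 3172 in WD+oil, 16722 in WD+CCl4 replicate 1 and 615 to 1912 in the other 5. The log2 difference went from 0.05 ± 0.69 to -0.64 ± 0.56. Over all 158 miRNAs, 31 differences changed sign without replicate 1, and 22 shifted by more than 0.5 log2 units.

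On the higher side, the smallest unadjusted p belonged to miR-340-5p, a miRNA encoded in an intron of Rnf130. It ran from 57.4 (median 74.2) to 126 in WD+oil and from 91.0 (median 117) to 292 in WD+CCl4. All 6 WD+CCl4 libraries exceeded the WD+oil mean, but the ranges overlapped. The log2 difference was 0.78 ± 0.31 (unadjusted p = 0.0181, limma adjusted p = 0.887), or 0.57 ± 0.29 without replicate 1. It exceeded the limit in 3 of 6 WD+oil and 6 of 6 WD+CCl4 libraries, and background subtraction gave 3.10, or 2.84 without replicate 1. Some WD+oil values lay under the negative control mean and were set to the floor, so these include the distance to it.

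Muscle miRNAs were higher for 4 of 5 tested members, with a median log2 difference of 0.60 with and without replicate 1. The largest was miR-499, which lies in an intron of the myosin gene Myh7b and is made in heart and slow muscle. Its values were 32.2 (median 89.0) to 152 in WD+oil and 108 (median 204) to 342 in WD+CCl4. Each WD+CCl4 library exceeded the WD+oil mean, 4 of the 6 exceeded every WD+oil library, and the difference was 1.35 ± 0.61 (limma adjusted p = 0.887), or 1.19 ± 0.64 without replicate 1. Above the limit were 2 WD+oil and 6 WD+CCl4 libraries, and background subtraction gave 2.82, or 2.63 without replicate 1. The cardiac and skeletal muscle miRNA miR-1 had a difference of 0.60 ± 0.45, or 0.61 ± 0.48 without replicate 1. It exceeded the limit in 1 WD+oil and 5 WD+CCl4 libraries, with 2.82 after background subtraction. From the same transcripts, miR-133a had 0.39 ± 0.42, or 0.58 ± 0.42 without replicate 1. The skeletal muscle miRNA miR-206 had -0.39 ± 0.44, or -0.46 ± 0.47 without replicate 1, with 3 WD+oil and 4 WD+CCl4 libraries above the limit. Its sign turned after background subtraction, to 0.90, or 0.66 without replicate 1.

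From imprinted and clustered loci, miR-376b had the largest positive difference of all, 1.43 ± 0.78. It belongs to the maternally expressed Dlk1-Dio3 cluster, of which 9 of 40 panel members were tested, 7 higher and 2 lower (median 0.29), or 6 and 3 without replicate 1 (median 0.23). Values of miR-376b were 9.67 (median 29.3) to 44.1 in WD+oil and 35.1 (median 49.9) to 492 in WD+CCl4. The 492 was replicate 1, the next highest was 80.6, and without it the difference was 0.88 ± 0.75. No WD+oil library and 5 WD+CCl4 libraries exceeded the limit. Background subtraction gave 3.92, or 3.22 without replicate 1, with several WD+oil values under the negative control mean and therefore set to the floor of 1. The neighbour miR-410 had 0.81 ± 0.51, or 0.51 ± 0.50 without replicate 1, with 0 and 3 libraries above the limit and 2.99 after background subtraction.

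The Sfmbt2 intron, a rodent cluster of many related miRNAs, had 6 of 12 panel members tested, 3 higher and 3 lower (median -0.05), or 2 and 4 without replicate 1 (median -0.03). Its miR-669a was 44.1 (median 67.4) to 81.7 in WD+oil and 66.8 (median 98.8) to 127 in WD+CCl4. Of the 6 WD+CCl4 libraries, 5 exceeded every WD+oil library. The difference was 0.59 ± 0.31 (limma adjusted p = 0.887) and 0.59 ± 0.32 without replicate 1. All WD+oil libraries of replicates 1 to 3 were below the limit, and the other 9 libraries above it. After background subtraction the difference was 2.59, or 2.54 without replicate 1.

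The let-7 family, which restrains growth and represses Lin28 and Ras messenger RNAs, split in 2 on the deposited scale despite its common seed. Of 9 tested members 4 were higher and 5 lower (median -0.32), and without replicate 1, 5 were higher and 4 lower (median 0.09). The smallest p of the higher side was let-7b, at 366 (median 865) to 1466 in WD+oil and 754 (median 1300) to 1631 in WD+CCl4. Of the WD+CCl4 libraries 5 exceeded the WD+oil mean, and the difference was 0.52 ± 0.32, or 0.64 ± 0.32 without replicate 1. On the lower side let-7e, which differs from let-7b outside the seed, had -0.73 ± 0.43, or -0.50 ± 0.42, with 2 and 3 libraries above the limit. After background subtraction let-7e had 0.29, or 0.49 without replicate 1, the same sign as let-7b at 0.60. The family median was then 0.40, against 0.32 over all miRNAs tested. The differences of let-7d (-0.60), let-7f (-0.58) and let-7i (-0.29) stayed negative after the subtraction. Each of these exceeded the limit in 6 WD+oil and 6 WD+CCl4 libraries. Without replicate 1 the same differences were 0.035, -0.23 and 0.16. Taken within replicates 1 to 3 the family median was -0.93, which became 0.16 without WD+CCl4 replicate 1, and within replicates 4 to 6 it was 0.24.

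No miRNA of the lists tied to fibrosis and liver cancer passed the test. Of 8 tested miRNAs that are reported higher in liver fibrosis or liver cancer, 6 were higher here (median 0.17), and without replicate 1, 4 were (median -0.003). Of 15 reported lower, 11 were higher (median 0.19) and without replicate 1, 9 were (median 0.04). Both arms of miR-199a stand in both lists and were higher with and without replicate 1, so they count as higher in each. The most studied of the first list, miR-21, which many tumours and activated stellate cells raise, ran from 4302 (median 5475) to 8541 in WD+oil and from 3974 (median 5564) to 47389 in WD+CCl4. Replicate 1 held the 47389 and no other library of the group exceeded 6829. The difference was 0.42 ± 0.54, or -0.11 ± 0.44 without that library. The miR-29 family, whose members repress collagen messenger RNAs, had 2 higher and 1 lower (miR-29a 0.27 ± 0.30, miR-29c 0.39 ± 0.50, miR-29b -0.59 ± 0.43). Without replicate 1 these were 0.20 ± 0.31, 0.095 ± 0.48 and -0.31 ± 0.41. In 3 WD+oil and 5 WD+CCl4 libraries miR-29b exceeded the limit, and its difference after background subtraction was 0.11, or 0.36 without replicate 1.

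No red cell miRNA passed the test. miR-451, made in maturing red cells without Dicer, measured 27083 (median 70851) to 80511 in WD+oil and 19016 (median 76065) to 115487 in WD+CCl4. The lowest of each group were WD+oil replicate 3 and WD+CCl4 replicate 1, and the difference was 0.04 ± 0.48, or 0.38 ± 0.45 without replicate 1. The widely expressed miR-16, also abundant in red cells, had -0.03 ± 0.29 (interval -0.63 to 0.57), or -0.02 ± 0.30 without replicate 1, and miR-486 had -0.83 ± 0.54, or -0.39 ± 0.48 without replicate 1. Over the 4 tested erythroid members 1 was higher and 3 lower (median -0.26, and -0.02 without replicate 1).

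Among the remaining miRNAs with the smallest p, those of the lower side come first. The probe shared by miR-1937a and miR-1937b, which the panel cannot tell apart, had -1.22 ± 0.66, or -0.77 ± 0.62 without replicate 1. For miR-1937c the values were -0.87 ± 0.42 and -0.70 ± 0.43, with 4 and 5 libraries above the limit and -0.60 after background subtraction. The hypoxia-induced miR-210 had -0.91 ± 0.42, or -0.69 ± 0.42 without replicate 1, with 3 libraries of each group above the limit and -0.70 after background subtraction. It measured -1.71 in replicates 1 to 3, -1.33 there without WD+CCl4 replicate 1, and -0.11 in replicates 4 to 6. For miR-714 the difference was -0.72 ± 0.38, or -0.75 ± 0.40 without replicate 1, with 2 and 3 libraries above the limit, and after background subtraction it was 0.16, or -0.018 without replicate 1. Without replicate 1, miR-1839-5p had -0.65 ± 0.28, miR-676 -0.78 ± 0.36 and miR-1933-5p -0.82 ± 0.40, and with all samples these were -0.26, -0.45 and -0.64. After background subtraction and without replicate 1 they were -0.45, -0.13 and -0.69, with 4 WD+oil libraries above the limit for each and 5, 5 and 6 WD+CCl4 libraries. On the higher side, miR-1983 had 0.75 ± 0.32, or 0.54 ± 0.31 without replicate 1, with 3 and 5 libraries above the limit and 2.81 after background subtraction. For miR-361 the values were 0.44 ± 0.25 and 0.34 ± 0.26, with 5 and 6 libraries above the limit and 0.89 after background subtraction. The mirtron miR-1224, a miRNA made by splicing, had 0.34 ± 0.39, or 0.42 ± 0.40 without replicate 1, with -0.24 in replicates 1 to 3 (-0.26 there without that library) and 0.91 in replicates 4 to 6.

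Whether the response to CCl4 differed between diets was tested as an interaction over all 24 samples, which called 0 of 158 miRNAs (0%) by limma, with 6 (3.8%) at an unadjusted p under 0.05. Without WD+CCl4 replicate 1 it called 2 (1.27%), miR-122 and miR-192, both with a smaller difference on western diet than on chow. On chow, miR-122 measured 78.0 (median 154.9) to 313 with oil and 809 (median 3358) to 60750 with CCl4. No chow library with CCl4 overlapped those with oil, while the western diet groups overlapped. The log2 difference with CCl4 was 4.74 on chow and 0.07 on western diet, so the difference between diets was -4.67 ± 1.21 (limma adjusted p = 0.112). It was -5.25 ± 1.13 without WD+CCl4 replicate 1 (adjusted p = 0.016) and -4.47 ± 0.89 (adjusted p = 0.00577) without that library and ND+CCl4 replicate 1, which also stood apart.

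For miR-192 the chow values were 109 (median 165) to 230 with oil and 394 (median 1232) to 19175 with CCl4, again without overlap. Its difference between diets was -3.04 ± 1.14 (limma adjusted p = 0.459), and -3.82 ± 0.93 without WD+CCl4 replicate 1 (adjusted p = 0.0306). ND+oil replicates 1 to 3 lay below the limit for miR-192, as did ND+oil replicate 3 for miR-122. After background subtraction without WD+CCl4 replicate 1, the difference between diets was -4.36 for miR-192 and -5.68 for miR-122 (limma adjusted p = 0.0121 and 0.00486). The oil groups already stood apart in level, with a log2 mean of 12.49 ± 0.80 for miR-122 in WD+oil and 7.26 ± 0.89 in ND+oil (SD, n = 6). The opposite sign was seen for miR-669a, with -0.86 on chow and 0.59 on western diet, a difference between diets of 1.45 ± 0.43 (limma adjusted p = 0.193), and for miR-328, with 1.501 ± 0.57 (adjusted p = 0.459). miR-540-3p, of the Dlk1-Dio3 cluster, had -2.69 ± 0.96 (adjusted p = 0.459). Without WD+CCl4 replicate 1 these 3 were 1.45 ± 0.44, 1.66 ± 0.57 and -2.96 ± 0.96 (limma adjusted p = 0.135, 0.172 and 0.135). For miR-361 the difference between diets was 0.71 ± 0.36 (limma adjusted p = 0.926), or 0.61 ± 0.36 without that library (adjusted p = 0.457).

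**Figure D5:**
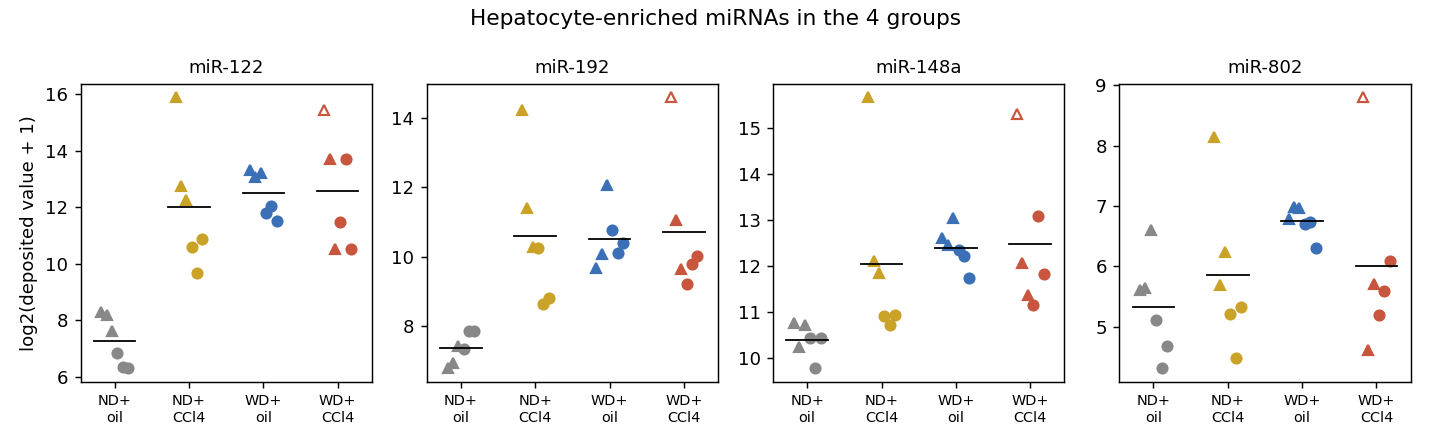
Log2 of the deposited value plus 1 for 4 hepatocyte-enriched miRNAs in the 24 libraries by group; triangles are replicates 1 to 3, circles replicates 4 to 6, the open triangle is WD+CCl4 replicate 1, and bars are group means. For miR-122 and miR-192 the chow groups do not overlap between oil and CCl4, while the western diet groups overlap in all 4 panels.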

How the data were processed

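Serum exosome RNA, extracted with a miRNeasy micro kit per the labels' protocols, was measured on a NanoString mouse miRNA panel. The deposited table holds a scaled signal. As the numbers themselves show, the authors applied 1 factor per sample (0.397 to 5.72) to digital counts, set anything under 1 to 1 and did not scale control probes. With the factor removed, 14571 of 14571 values above 1 were whole counts (100%, within 0.05). How exosomes were isolated, the software and the cartridges were not given in the sources used here.

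Tests covered the 158 of 566 miRNAs whose count lay over 2 SD above the mean of the 8 negative control probes in 6 or more of the 24 samples (66 of them in all 12 western diet samples); 4 kept probes are shared by several miRNAs. The test was limma 3.58.1 (R 4.3.3; lmFit, eBayes with trend) on log2(deposited value + 1), with 4 group means over 24 samples, two-sided, Benjamini-Hochberg adjusted over the 158. Differences are on that scale, which includes background, and ± gives SE for differences. For low miRNAs the scale can understate a rise, and it can understate, overstate or produce a fall. The negative controls themselves were lower in WD+CCl4 (log2 difference -1.22). Library measures were compared by exact permutation. edgeR 4.0.16 and DESeq2 1.42.0 on the recovered counts, background subtraction, spike-in scaling, pseudocounts 0.5 and 10, other filters, covariates and left-out libraries were alternatives. Fits and count recovery were tested on simulated data. Intervals and depths from 48664 to 1328933 counts cover these libraries only.

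Named miRNAs are the 8 rises and 8 falls of smallest p, the 5 and 5 of smallest p without WD+CCl4 replicate 1, those whose groups do not overlap, 8 fixed miRNAs (miR-122, miR-192, miR-148a, miR-21, miR-223, miR-451, miR-16, miR-1224), the interaction's 3 and 3 and the 3 narrowest intervals; list members are examples. miR-30a, miR-1, miR-133a, miR-206, miR-150, miR-486, miR-365, let-7a, let-7d, let-7f, let-7i and miR-22 were named after their values were seen. Members and lists were chosen with earlier results of these data known, and lists are described by counts and medians only. Viral and messenger RNA probes were not tested.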

Additional observations from a re-analysis of the deposited data

Results flagged for a closer look

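A library far from the others of its group was found in 15 of 72 sets of 6 values, by the gap to the nearest value over the whole range (critical value 0.625). For a single set chosen beforehand, chance gives about 1 in 20. Most sets hold miRNAs named from these same data, and 12 of the 15 come from the same library. The count can therefore not be set against that rate. In WD+CCl4 replicate 1 this held for 12 miRNAs: miR-21 (0.782), miR-410 (0.730), miR-223 (0.726), miR-1839-5p (0.716), miR-350 (0.709), miR-376b (0.688), miR-142-5p (0.681), miR-192 (0.656), miR-342-3p (0.650), miR-802 (0.647), miR-676 (0.640) and miR-451 (0.628). Replicate 1 was the highest library of its group for miR-21, miR-410, miR-1839-5p, miR-350, miR-376b, miR-192, miR-802 and miR-676, and the lowest for miR-223, miR-142-5p, miR-342-3p and miR-451. For example, miR-350 was 1109.9 there and 727 to 822 in the other 5, and miR-1839-5p was 513 against 84.3 to 141. WD+oil replicate 3 stood apart for miR-451 (0.764, at 27083 against 62227 to 80511) and miR-342-3p (0.693, at 5351 against 1719 to 2437), and WD+oil replicate 4 for miR-1224 (0.760, at 1183 against 2056 to 2447).

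The difference of miR-669a with carbon tetrachloride had opposite signs on the 2 diets. All 6 WD+CCl4 libraries lay above the WD+oil mean, and all 6 ND+CCl4 libraries below the ND+oil mean. These are comparisons of single libraries with a group mean, since samples are not shown to be paired. Among the oil libraries, miR-669a lay below the limit in WD+oil replicates 1 to 3 and in ND+oil replicate 2. The difference between diets of 1.45 on the log2 scale had a limma adjusted p of 0.193 and was not called.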

How the results depend on the processing

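Counts of called miRNAs stayed at 0 for WD+CCl4 against WD+oil under all alternatives, leaving out each replicate included, except background subtraction fitted with a set term (replicates 1 to 3 against 4 to 6), which called 3, all higher: miR-340-5p (3.10, limma adjusted p = 0.0197), miR-199a-5p (3.15, 0.0197) and miR-669a (2.59, 0.0326). These 3 exceeded the limit in 3, 1 and 3 WD+oil libraries and in all 6 WD+CCl4 libraries. Subtracted values under 1 were set to 1, so these 3 differences include the distance to that floor. The interaction called 1 miRNA, miR-122, with background subtraction, with the set term, with the replicate block, and with the block without WD+CCl4 replicate 1. It called 2 without both libraries that stand apart, with library weights, with DESeq2, in replicates 4 to 6 alone, with the set term without WD+CCl4 replicate 1, and with background subtraction either without that library or with the set term. Without that library edgeR called 9 and DESeq2 17, and leaving out single replicates gave 0 to 2. miR-122 was among the calls in each of the 14 settings with any. The cause was not tested.

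Same-numbered samples of the western diet groups are not shown to be paired, since their deviations correlated at 0.08, 0.37, 0.03, -0.10, 0.47 and 0.71, and 2 of 6 matched best with their own number. The replicate block called 0 miRNAs between the groups (17 at an unadjusted p under 0.05, against 8).

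Scaling by the ath-miR159a spike-in, chosen after seeing the data, shifted the median difference of all miRNAs from 0.003 to 1.05 and turned to higher miR-132 (0.33), miR-210 (0.14), miR-1937c (0.18), miR-714 (0.33), miR-802 (0.31), miR-1839-5p (0.79), miR-676 (0.61), miR-1933-5p (0.41), miR-223 (0.93), miR-16 (1.02), miR-23a (0.92) and miR-25 (0.82), all below that shift. Background subtraction, with or without the set term, moved the median to 0.32 and gave 0.16 for miR-714 and 0.27 for miR-676. edgeR gave 0.062 for miR-802, 0.076 for miR-1839-5p and 0.14 for miR-223 (median of all 0.17), and DESeq2 gave 0.22, 0.22 and 0.19 with 0.051 for miR-16 and 0.017 for miR-23a (median 0.23).

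Leaving out both libraries that stand apart gave -0.51 for miR-122, -0.58 for miR-192, -0.50 for miR-148a, -0.11 for miR-21, 0.38 for miR-223 and -0.053 for miR-350. Library weights gave -0.52, -0.41, -0.36, -0.0017, 0.18 and -0.064, and background subtraction without WD+CCl4 replicate 1 gave -0.51, -0.55, -0.49, -0.11 and 0.38 for the first 5. Replicates 4 to 6 alone gave -0.75 for miR-192, -0.071 for miR-148a, -0.024 for miR-21, 0.13 for miR-223 and -0.16 for miR-350, and replicates 1 to 3 alone -0.065 for miR-451, 0.057 for miR-16 and -0.24 for miR-1224. Leaving out single replicates gave ranges of -0.51 to 0.48 for miR-122, -0.58 to 0.51 for miR-192, -0.50 to 0.33 for miR-148a, -0.11 to 0.60 for miR-21, -0.34 to 0.38 for miR-223, -0.20 to 0.38 for miR-451, -0.095 to 0.028 for miR-16 and -0.053 to 0.12 for miR-350. The log2 total ranged from 1.01 to 1.66, detected miRNAs from 39.9 to 59.7 and the haemolysis index from -0.059 to 0.56. In all, 72 of 1123 values of named miRNAs changed sign and 19 passed the threshold. The limit of 163 to 277 units in WD+oil replicates 1 to 3 bounds what can be read of low miRNAs.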

Other observations

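Probes outside the mouse miRNA set were also counted in these libraries. The actin messenger RNA Actb exceeded the limit in 6 of 6 WD+oil and 6 of 6 WD+CCl4 libraries, at 141 (median 422) to 631 and 36.5 (median 476) to 933 deposited units. B2m, the light chain of class I antigen presentation, exceeded it in 6 and 5 libraries, at 162 (median 281) to 452 and 16.4 (median 449) to 532. Gapdh, a glycolytic enzyme, exceeded it in 0 and 1 libraries and the ribosomal protein gene Rpl19 in 0 and 4. Over the tested miRNAs, 85 of 158 exceeded the limit in more WD+CCl4 than WD+oil libraries, 1 in fewer and 72 in equal numbers, and the depth of the libraries differed in the same direction.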
